A study of Homo sapiens with 8 samples.

Results

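SLC7A3 and 9 other genes of plasma membrane amino acid transport were followed in human embryonic stem cells sorted by size. The members were all probe sets of the value table that the platform annotation assigned to exactly one of the symbols SLC7A1, SLC7A2, SLC7A3, SLC7A5, SLC7A6, SLC7A8, SLC7A11, SLC3A2, SLC1A5 and SLC38A2. This gave 26 probe sets for 10 genes, of 19775 genes that the array names alone. SLC7A3 entered for its lower level in small cells in an earlier analysis of the same arrays, and the other symbols were added with those results known. The differences between small and large cells are therefore given for the members as a description, with no p-value printed. Where members are called or counted at a threshold on p, this is a description as well.

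The samples were a small and a large fraction of the established human embryonic stem cell line H1, with 4 sorts of each fraction that the labels call biological repeats. Flow cytometry separated the fractions by light scatter, forward and sideways, which varies with cell size and granularity. Both came from untreated cultures on irradiated mouse embryonic fibroblasts, and nothing in the labels sets them apart by genotype or treatment. Each sort was measured on its own array of the Affymetrix U133 Plus 2.0 design. All values come from 1 cell line, and labelling started from an equal RNA mass in each sample, so they are levels relative to the RNA measured. Fewer cells of a type and less RNA per cell cannot be told apart in such bulk samples.

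The deposited intensities were on different scales, with 75th percentiles between 41.9 and 106, and were brought to a common distribution by quantile normalization. All levels below are normalized log2 intensities and all differences are small minus large, also on the log2 scale. Of the embryonic stem cell markers, 8 of 9 tested did not pass the test, among them NANOG (-0.05 ± 0.10, standard error), SOX2 (-0.17 ± 0.12) and LIN28A (0.00 ± 0.13). Only the surface sialomucin gene PODXL passed, as lower in small cells (-0.98 ± 0.15, limma adjusted p = 0.00754, unadjusted p = 1.92e-05). Their summed normalized intensity was 17955 to 20889 on small and 20664 to 23528 on large arrays. The summed level of 7 fibroblast markers was 1032 to 1971 on small and 1335 to 2707 on large arrays, and that of 5 neuroectoderm markers was 699 to 843 on small and 538 to 680 on large arrays, without overlap. OTX2 made up most of the neuroectoderm sum, with means of 9.33 in small and 9.02 in large cells, the others having means of 5.57 or lower. None of the 7, 5, 5 and 4 tested markers of fibroblasts, neuroectoderm, endoderm and mesoderm, and trophoblast was called. PAX6 was at 5.87, 5.46, 5.43 and 5.13 on small arrays and at 5.63 on large array 1. On large arrays 2 to 4 it was at 3.22, 2.74 and 3.24, below the 3.623 used as a filter on mean values. STMN2 also lay below 3.623 on large arrays 1, 3 and 4 (3.05, 3.26 and 2.73). The differences of the 5 neuroectoderm markers ran from 0.22 to 1.77 (PAX6, ± 0.52), with a median of 0.57. By limma's test 4 of these 5 had an unadjusted p under 0.05, where 16.5% of all genes had. No tested marker of fibroblasts, of endoderm and mesoderm or of trophoblast had. PDGFRB, FAP, GATA4, FOXA2, MIXL1 and CGA lay below the filter on low values, and no probe set annotated to NEUROD1 or CGB3 alone was used here. RNA quality was read from control probe sets at both ends of GAPDH and ACTB, as 3 prime minus 5 prime end on the log2 scale. This end difference was 1.94 to 2.66 on small arrays, 2.91 on large array 1 and 1.83 to 1.89 on large arrays 2 to 4. The part of these markers and of RNA quality in the differences below was not tested beyond the fits named.

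Amino acids cross the plasma membrane through families of carriers that differ in charge preference, sodium coupling and subunit make-up. SLC7A1, SLC7A2 and SLC7A3 encode the cationic amino acid transporters, single glycosylated proteins that carry arginine, lysine and ornithine. SLC7A5, SLC7A6, SLC7A8 and SLC7A11 encode light chains that reach the cell surface bound by a disulfide bridge to the heavy chain encoded by SLC3A2. SLC1A5 and SLC38A2 encode sodium-dependent carriers of neutral amino acids such as glutamine. When amino acids run short, the kinase GCN2 phosphorylates eIF2, the transcription factor ATF4 is translated, and ATF4 binds amino acid response elements at several transporter genes.

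The letters of that element, TGATGNAA, were searched on both strands of RefSeq promoter windows (GRCh38.p14), each with 250 bases before and 50 after a transcript start. Windows were found for 7 of the 10 members, 14 in all, and SLC7A2, SLC7A3 and SLC7A11 had no entry. A match stood in 3 of the 14 windows, 1 each of SLC7A1, SLC3A2 and SLC1A5, where 3.62% of all 35116 windows hold one. SLC3A2 and SLC1A5 have 3 windows each, so a match in 1 of them belongs to 1 of several starts. The 3 matches are printed because these genes are described below beside ATF4 and its targets, with ASNS, a well-studied ATF4 target, for comparison. The capitals mark the 8 matching bases, and each sequence reads 5′ to 3′ on the gene's strand. That of SLC7A1 is chr13:29595663-29595692 (minus strand), with the match from base 8 counted from the start. That of SLC3A2 is chr11:62881719-62881748 (plus strand), with the reverse complement of the element from base 38. Those of SLC1A5, chr19:46784893-46784922 (minus strand), and ASNS, chr7:97872458-97872487 (minus strand), have the match from base -97 and base -68.
SLC7A1: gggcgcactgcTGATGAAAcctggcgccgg
SLC3A2: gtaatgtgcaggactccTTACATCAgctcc
SLC1A5: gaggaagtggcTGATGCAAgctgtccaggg
ASNS: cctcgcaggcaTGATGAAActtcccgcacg
Of 23 amino acid response genes with a window, 7 held a match in at least 1 window, where 4.46% of all 27305 genes did. A match of letters shows neither binding nor use.

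All 10 member genes had a difference below 0, from -1.56 for SLC7A3 to -0.07 for SLC7A6, where 44.0% of all 14726 tested genes did. The median was -0.68 over the members and 0.05 over all genes. By limma's test over all genes at an adjusted p under 0.05, 2 members (SLC7A3 and SLC38A2) were called lower and 0 higher, against 1.69% of all genes called lower. With scaling to the 75th percentile only SLC7A3 was called, and all genes then gave 148 called lower and 62 higher, against 249 and 44 here. The 4 small values lay below all 4 large values for SLC7A3, SLC38A2 and SLC7A11, and 5.07% of all genes were separated in this direction. No member was separated in the other direction, as 4.94% of all genes were. Since the members were chosen on this contrast, nothing is read from these counts.

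**Figure D1:**
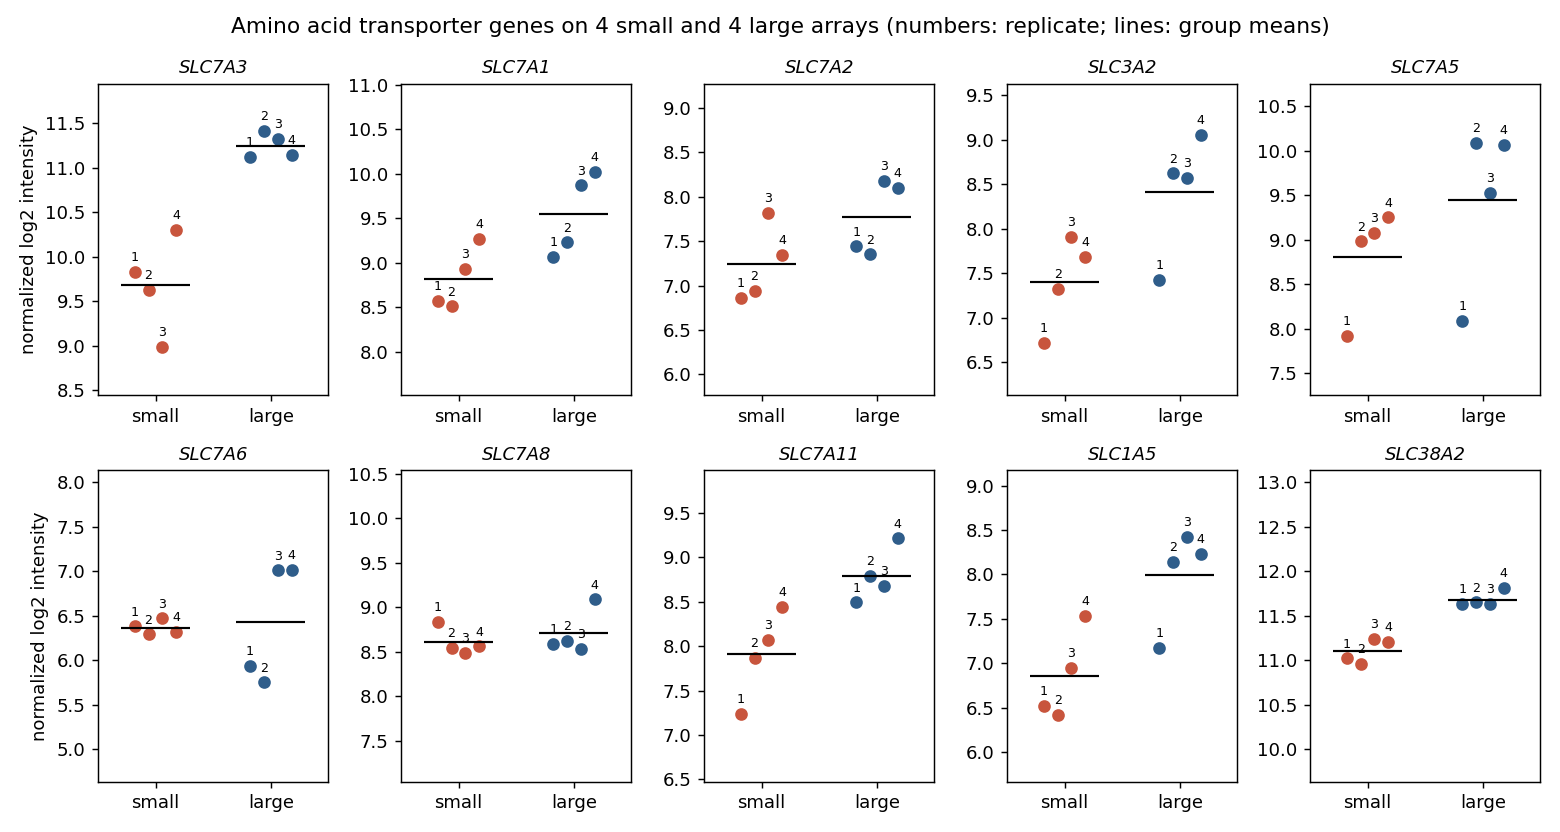
Normalized log2 intensity (y axis, each panel spanning the same number of log2 units) of the probe set that represents each of 10 transporter genes, on 4 small arrays (left) and 4 large arrays (right), with replicate numbers beside the points and lines for group means. The groups stand apart for SLC7A3, SLC7A11 and SLC38A2, and large array 1 lies among the small arrays for SLC3A2, SLC7A5 and SLC1A5.

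Among the cationic amino acid transporters, SLC7A3 stood lowest in small cells relative to large cells. Its only probe set (230597_at) was at 9.83, 9.63, 8.98 and 10.30 on small arrays 1 to 4, and at 11.12, 11.41, 11.32 and 11.14 on large arrays 1 to 4. The groups did not overlap, small array 4 and large array 1 being nearest, and the small arrays were the more scattered, with an SD of 0.55 against 0.14 in large cells. The difference was -1.56 ± 0.21 (standard error, n = 4 per group), a level 2.96-fold lower in small cells and the 9th lowest of 14726 genes. The intensities as deposited were also separated, at 917, 592, 897 and 970 on small arrays and 1390, 2460, 3740 and 2590 on large arrays. With 1 array left out in turn the difference ran from -1.76 to -1.35, a description of the arrays on which the gene was chosen. It was -1.50 with the end difference of the control genes as a covariate. It was not called on the deposited scaling (-1.53), with median centring (-1.38) or without a variance trend.

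SLC7A1, the widely expressed transporter of this group, had 5 probe sets, of which 2 passed the filter on low values. The brighter of these was at 8.57, 8.51, 8.93 and 9.27 on small arrays and at 9.07, 9.23, 9.87 and 10.02 on large arrays. Small array 4 overlapped large arrays 1 and 2, and the difference was -0.73 ± 0.23. The other (212290_at) was at 6.38, 6.26, 6.72 and 6.67 on small arrays and at 7.38, 7.28, 7.68 and 7.17 on large arrays, without overlap, with a difference of -0.87 ± 0.19. Both probe sets thus differed in the same direction by similar amounts. SLC7A2 rested on 1 of its 3 probe sets, which was at 6.86, 6.94, 7.82 and 7.34 on small arrays and at 7.44, 7.35, 8.18 and 8.10 on large arrays. The groups overlapped, and the difference was -0.53 ± 0.25, or -0.83 without large array 1 and small array 3. The remaining 3 probe sets of SLC7A1 and 2 of SLC7A2 lay between 1.31 and 4.55 on all arrays, failed the filter, and were not tested.

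The heavy chain gene SLC3A2 was at 6.71, 7.32, 7.91 and 7.68 on small arrays and at 7.42, 8.62, 8.57 and 9.05 on large arrays. Large arrays 2 to 4 lay above all small arrays, and large array 1 lay within them. The difference was -1.01 ± 0.32, a 2.01-fold lower level in small cells, and -1.35 without large array 1. SLC7A5, the light chain of the main exchanger for leucine and other large neutral amino acids, showed the same placement, at 7.92, 8.98, 9.08 and 9.25 on small arrays and at 8.09, 10.09, 9.53 and 10.07 on large arrays. Its difference of -0.64 ± 0.39 moved with single arrays: it was -1.09 without large array 1, -0.34 without small array 1, -0.42 without large array 2, -0.43 without large array 4 and -0.32 with the end difference of the control genes as a covariate.

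SLC7A11, the light chain of the cystine-glutamate exchanger, was at 7.24, 7.87, 8.07 and 8.44 on small arrays and at 8.49, 8.79, 8.68 and 9.21 on large arrays. The groups just missed overlapping, between small array 4 and large array 1, and the difference was -0.89 ± 0.23. Its probe sets disagreed in size and sign: 207528_s_at had a difference of -0.28 ± 0.27 and 217678_at of 0.05 ± 0.24. The mean of the 3 was -0.37. SLC7A6 and SLC7A8, light chains for cationic with neutral and for neutral amino acids, had small differences on the probe sets that represent them. SLC7A6 was at 6.38, 6.29, 6.47 and 6.32 on small arrays and at 5.94, 5.75, 7.01 and 7.02 on large arrays, with large arrays on both sides of the small ones and a difference of -0.07 ± 0.28. Its 2 dimmer probe sets had differences of 0.21 ± 0.38 and 0.13 ± 0.38. SLC7A8 was at 8.84, 8.54, 8.49 and 8.56 on small arrays and at 8.59, 8.62, 8.53 and 9.09 on large arrays, a difference of -0.10 ± 0.16. The other 4 probe sets of SLC7A8 ran from -0.96 ± 0.31 (202752_x_at) to 0.39 ± 0.63 (217248_s_at), so no single value describes this gene here.

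**Figure D2:**
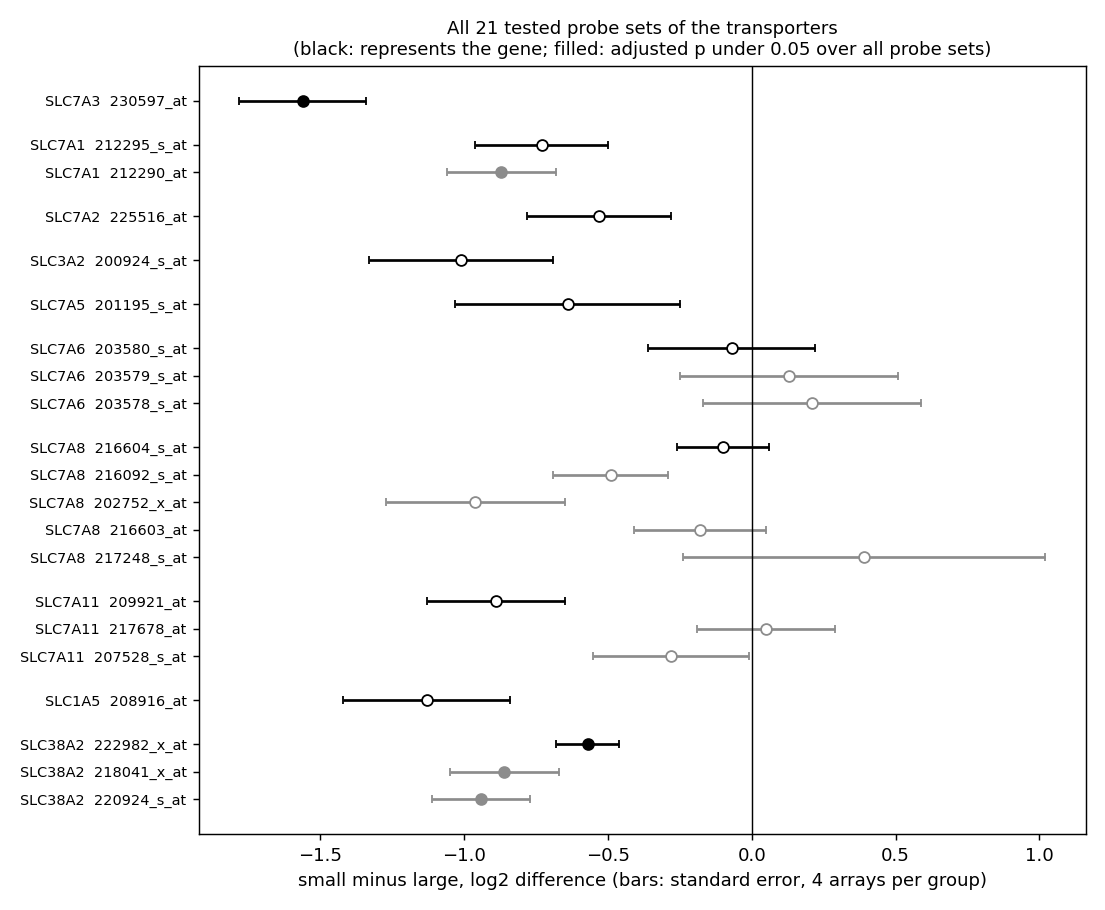
Small minus large log2 difference (x axis) with its standard error for each of the 21 tested probe sets, grouped by gene. Points left of 0 are lower in small cells. The 3 probe sets of SLC38A2 and both of SLC7A1 lie on the same side, while those of SLC7A6, SLC7A8 and SLC7A11 fall on both sides of 0.

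Of the sodium-dependent carriers, SLC1A5, an exchanger that takes up glutamine, was at 6.52, 6.42, 6.95 and 7.53 on small arrays and at 7.17, 8.14, 8.42 and 8.23 on large arrays. Large array 1 lay below small array 4, and the other large arrays lay above all small ones. The difference was -1.13 ± 0.29, a 2.19-fold lower level in small cells, and -1.41 without large array 1. SLC38A2, a carrier of alanine, glutamine and other small neutral amino acids, was at 11.02, 10.96, 11.24 and 11.21 on small arrays and at 11.63, 11.65, 11.63 and 11.81 on large arrays. The groups did not overlap, and the difference of -0.57 ± 0.11 was small but had the narrowest error of the 10 genes. Its other 2 probe sets had larger differences, -0.94 ± 0.17 (220924_s_at) and -0.86 ± 0.19 (218041_x_at), and did not overlap either. All 3 end in _x_at or _s_at, a mark of probes that may bind several transcripts. Of the 21 tested member probe sets 14 do, among them all those of SLC3A2, SLC7A5 and SLC7A6. The call of SLC38A2 held in 5 of 8 fits with 1 array left out and was lost without small array 1, small array 2 or large array 4. The difference was -0.38 with median centring and with scaling to the 75th percentile, where it was not called, and -0.58 with the end difference as a covariate.

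Over the 21 tested probe sets, 17 differences were below 0 and 4 above. By limma's test over all probe sets, 5 were called lower and 0 higher, against 1.30% of all probe sets called lower. The 5 were that of SLC7A3, the 3 of SLC38A2 and 1 of SLC7A1. Groups stood apart, with small cells lower, for 7 of the 21 and for 5.46% of all probe sets. As with the genes, nothing is read from these counts, because the members were chosen on this contrast. Probe sets of 1 gene are also not independent of each other.

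Of the 8 fits that leave out 1 array, the one without large array 1 moved the count of members called furthest. Without it, 7 of 10 members were called lower (SLC7A1, SLC7A3, SLC7A5, SLC7A11, SLC3A2, SLC1A5 and SLC38A2), against 2.43% of all genes, and the median over the members was -0.94. This is the array with the highest end difference of the control genes, 2.91. Without large array 1 and small array 3, the array with the next highest (2.66), 7 members were called as well, against 3.12% of all genes. Nothing is read from these counts either, since the same contrast chose the members. Without small array 1, only SLC7A3 was called, where 0.408% of all genes were called lower. SLC7A2, SLC7A6 and SLC7A8 were called in none of the 8 fits, and SLC7A6 ran from -0.30 to 0.13.

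**Figure D3:**
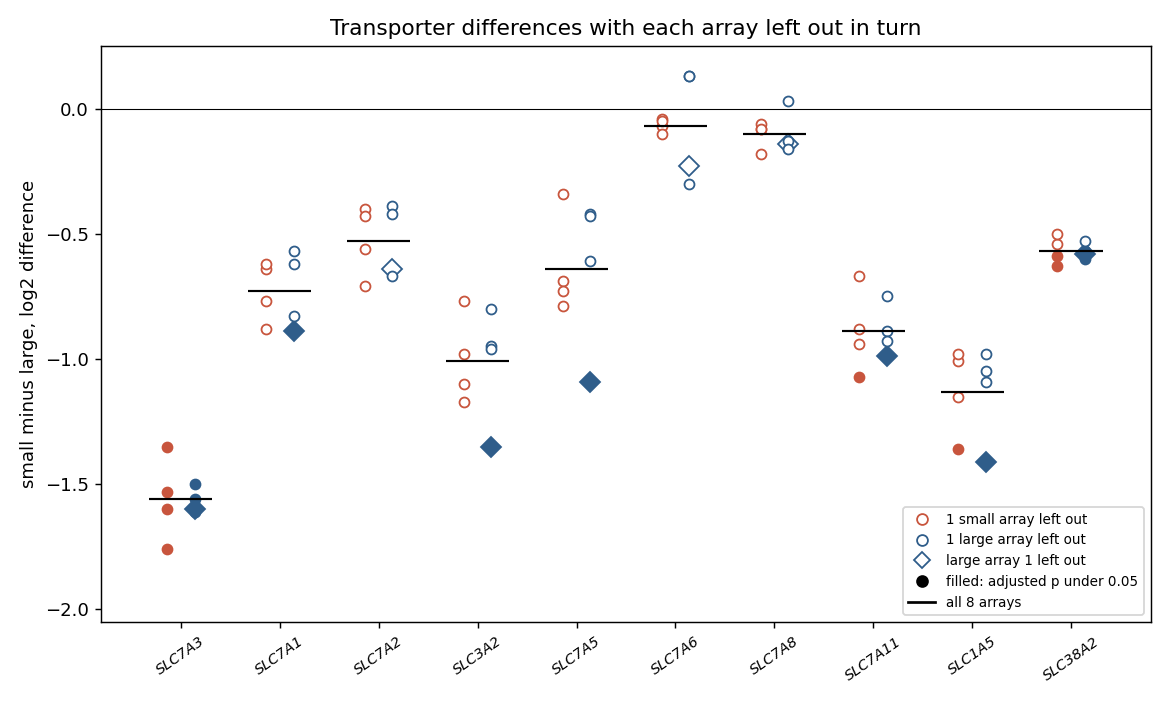
Small minus large log2 difference (y axis) of each transporter gene when 1 of 8 arrays was left out, with small arrays left of large arrays for each gene, filled where adjusted p was under 0.05 over all genes, and a line for all 8 arrays. The values of SLC7A3 run from -1.76 to -1.35, and the diamonds, for large array 1 left out, lie below the line for SLC3A2, SLC7A5 and SLC1A5.

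Over the 8 arrays, Pearson's correlation of SLC7A3 was highest with SLC38A2 (0.84) and SLC1A5 (0.80) and lowest with SLC7A6 (0.01). Once each group's mean was taken out, these were -0.18, 0.36 and -0.14. The 5 genes of all 14726 whose pattern was most like that of SLC7A3 over the 8 arrays were ASAH1 (acid ceramidase, 0.988), FUCA2 (a fucosidase, 0.983), RTN3 (a reticulon of the endoplasmic reticulum, 0.981), EBPL (0.976) and PLOD3 (a collagen lysyl hydroxylase, 0.972). With group means taken out they remained between 0.87 and 0.92. Their differences were -0.46 ± 0.13, -0.91 ± 0.17, -1.10 ± 0.20, -0.71 ± 0.12 and -0.71 ± 0.18 in the order named. That of RTN3 was -0.49, -0.33 and -0.37 without large array 1, 3 or 4. The brightest probe set was chosen again in each fit, so these values may come from another probe set of RTN3. They therefore do not show how stable its -1.10 or its correlation was. As the mean of its probe sets RTN3 was at -0.73. The correlations describe 8 arrays that share a fraction in sets of 4, and were picked as the highest of all genes.

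Other amino acid transporters were taken from a list of 41 genes, of which 29 were tested. By limma's test over all genes, 3 passed as lower in small cells and 0 as higher, where 1.69% and 0.299% of the 14726 did. The median of the 29 was -0.19, and 19 had a difference below 0. SLC16A10, which carries aromatic amino acids, was at 6.32, 6.20, 6.31 and 6.74 on small arrays and at 7.24, 7.84, 7.32 and 7.44 on large arrays (difference -1.07 ± 0.19, adjusted p = 0.0171). SLC38A9, the lysosomal carrier through which arginine is sensed, was at 7.76, 7.96, 7.82 and 7.98 on small arrays and at 8.40, 8.67, 8.53 and 8.52 on large arrays (-0.65 ± 0.14, adjusted p = 0.0346). SLC38A1, a glutamine carrier close to SLC38A2, was at 10.75, 10.56, 10.45 and 10.89 on small arrays and at 11.03, 11.14, 11.40 and 11.30 on large arrays (-0.56 ± 0.13, adjusted p = 0.0424). These 3 were among 5 of the 29 whose groups did not overlap, small cells being lower, where 5.07% of all genes were so separated. The test had picked these 3, so nothing more is read from their separation. With 1 array left out, the call of SLC16A10 held in 5 of 8 fits (lost without small array 1 or 2 or large array 4), that of SLC38A1 in 2 (without small array 4 or large array 1) and that of SLC38A9 in 1 (without large array 1). SLC38A9 had a difference of -0.28 as the mean of its probe sets, and SLC38A1 of -0.34 with median centring and with scaling to the 75th percentile, and neither passed there. Of the remaining light chains on the list, SLC7A10 and SLC7A13 were not tested and the others did not pass: SLC7A7 was at -0.26 ± 0.23 and SLC7A9 at 0.32 ± 0.33, and SLC3A1, the other heavy chain, was at 0.17 ± 0.43.

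**Figure D4:**
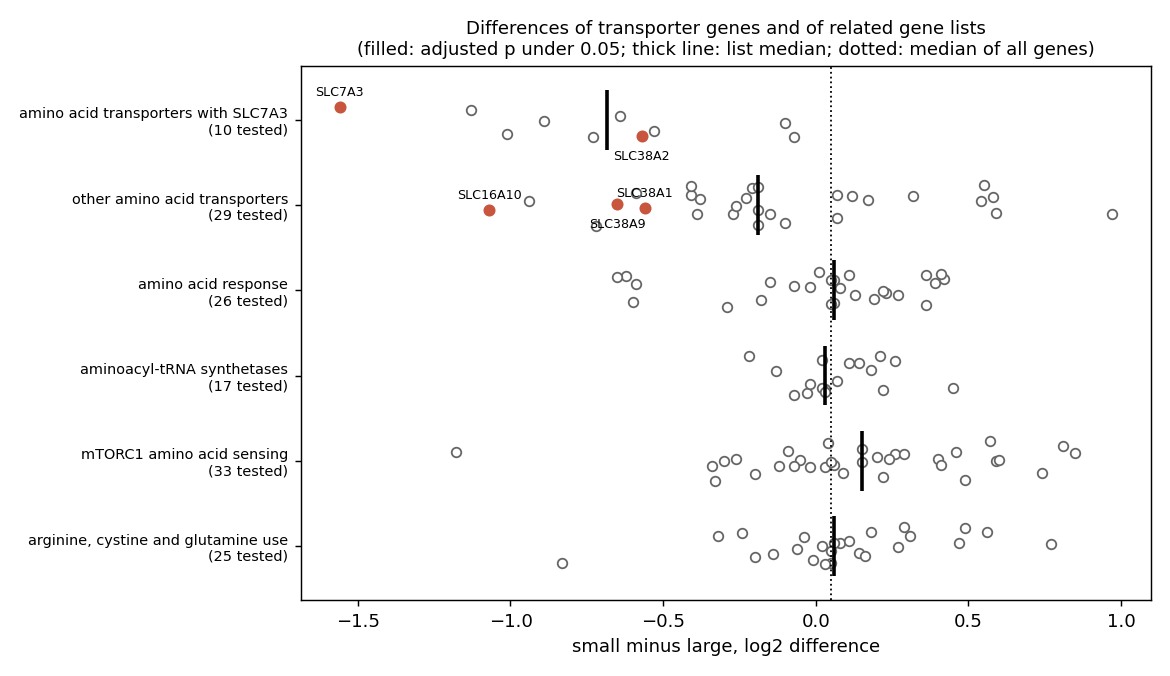
Small minus large log2 difference (x axis) of each tested gene in the transporter set and in 5 related lists (rows), filled and named where adjusted p was under 0.05 over all genes, with a thick line for each list's median and a dotted line for the median of all genes. Filled points occur in the first and second rows and all lie left of 0.

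For genes of the response to amino acid shortage, 0 of 26 tested passed limma's test in either direction, while 6 had an unadjusted p under 0.05, as 16.5% of all genes had, and the list's median was 0.06. ATF4 was at 11.54, 11.37, 11.37 and 11.68 on small arrays and at 11.25, 11.29, 11.15 and 11.33 on large arrays. These groups did not overlap, small cells being higher, but the difference of 0.23 ± 0.11 did not pass (adjusted p = 0.294). EIF2AK4, which encodes GCN2, was separated in the same direction (0.39 ± 0.16, adjusted p = 0.246). These were the 2 of 26 genes separated this way, and 2 were separated the other way. Over all genes the shares were 4.94% and 5.07%. ASNS, asparagine synthetase, had a difference of 0.11 ± 0.13 and TRIB3, a pseudokinase induced by ATF4, of 0.27 ± 0.19. The members with the smallest p were ALDH18A1, an enzyme of proline synthesis (-0.60 ± 0.18, adjusted p = 0.106), and the lipoprotein receptor gene VLDLR (-0.62 ± 0.19, adjusted p = 0.114). ALDH18A1 passed as the mean of its probe sets (-0.84, adjusted p = 0.0436) and with the replicate number as a block (-0.60, adjusted p = 0.0352). It also passed without large array 1 and small array 3 (-0.77, adjusted p = 0.0314).

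Genes that use or sense the imported amino acids did not pass the test either, and the counts at an unadjusted p under 0.05 again stand beside 16.5% of all genes. For the aminoacyl-tRNA synthetases, which charge tRNAs, 0 of 17 passed (2 at an unadjusted p under 0.05) and the median was 0.03. YARS1 and KARS1, the tyrosyl and lysyl enzymes, were at 0.45 ± 0.13 (adjusted p = 0.106) and 0.26 ± 0.09 (adjusted p = 0.170). KARS1 was at 0.40 with median centring. YARS1 was at -0.14 once probe sets with the endings _x_at and _s_at were left out. For mTORC1 and its amino acid sensors, 0 of 33 passed (5 at an unadjusted p under 0.05) and the median was 0.15. RRAGD, a Rag GTPase, was at 0.59 ± 0.17 (adjusted p = 0.0892) and EIF4EBP1, a repressor of translation that mTORC1 phosphorylates, at 0.81 ± 0.27 (adjusted p = 0.151), or 0.51 without large array 3. For enzymes that use arginine, cystine, lysine and glutamine, 0 of 25 passed (4 at an unadjusted p under 0.05) and the median was 0.06. AASS, the first enzyme of lysine breakdown, was at -0.83 ± 0.24 (adjusted p = 0.105), and GATM, which starts creatine synthesis from arginine, was at 0.77 ± 0.25 (adjusted p = 0.147), or 0.32 as the mean of its probe sets and 0.48 without large array 1 and small array 3. With large array 2 left out AASS was lower (-1.07, adjusted p = 0.0300), as it was without the probe sets of those endings (-0.80, adjusted p = 0.0449). It was also called with the replicate number as a block (-0.83, adjusted p = 0.00260).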

How the data were processed

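Scans were extracted in GeneChip Operating Software and loaded into Rosetta Resolver 7.1, per the series design text. The values the authors deposited are intensities on a linear scale. Their background correction and scaling are not given in the sources used here.

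From these intensities, 62 control probe sets were removed, 1.813 (the 10th percentile) was added, log2 taken and arrays quantile normalized. Fold changes of dim genes are thereby understated. Probe sets with a mean above the 40th percentile (3.623) were tested, 32768 in all, and the brightest tested probe set of each gene represented it (14726 genes), chosen again in each alternative. All 10 members had such a probe set. Symbols came from GEO's platform annotation, updated through RefSeq gene IDs. Small and large arrays, 4 each, grouped by title, were compared in limma 3.58.1 (R 4.3.3) with a variance trend, two-sided, with Benjamini-Hochberg adjustment over all genes (or all probe sets) and a threshold of 0.05. Errors are moderated standard errors. The procedure was tested on simulated data. The number of arrays limits precision, with a median standard error of 0.24 over genes.

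The members, the lists and the alternatives were chosen with earlier results of these data known. Named genes were the members, up to 3 called genes with the largest difference per list (otherwise the 2 with the smallest p) and the 5 genes most like SLC7A3. ATF4, EIF2AK4, ASNS, TRIB3, SLC7A7, SLC7A9 and SLC3A1 were added after their values were seen. Equally numbered sorts are not said to share a culture, so no pairing entered the main comparison. Alternatives were 3 other scalings, 2 pseudocounts, 2 filters, no variance trend, a replicate block, 2 other choices of probe sets, a covariate, a threshold of 0.10, 2 arrays left out together and each of the 8 arrays left out in turn.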

Additional observations from a re-analysis of the deposited data

Results flagged for a closer look

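Of 74 groups of 4 values checked over the tested member probe sets and the other genes named by rule, 3 held a single array far from the rest, where chance alone gives about 1 group in 20. For SLC38A2 (222982_x_at), large array 4 was at 11.81 while the other large arrays lay between 11.63 and 11.65. Without that array the difference was -0.53 and was not called. For SLC7A8 (216604_s_at), large array 4 was at 9.09 while the others lay between 8.53 and 8.62, and without it the difference was 0.03. For KARS1, small array 3 was at 12.59 while the others lay between 12.34 and 12.38.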

How the results depend on the processing

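The median over the members stayed below 0 in all 22 alternatives, between -0.99 and -0.55, while the median of all genes ran from -0.05 to 0.10. Of 565 single-gene values under the alternatives, 559 kept the sign of the main value. The genes were chosen on these same arrays and every alternative reuses them, so this agreement and that of the median are descriptions only. Under each of median centring, no variance trend and the deposited scaling, limma called 0 genes, 0 members, 0 member probe sets and 0 other transporters (1575, 2234 and 494 genes, and 5, 6 and 3 members in that order, at an unadjusted p under 0.05). The causes of these and the following shifts were not tested. The 75th percentile scaling called 1 member, 2 member probe sets and 1 other transporter, and no filter gave 3 member probe sets. With the mean of a gene's probe sets, 1 other transporter and 2 amino acid response genes were called. Without _x_at and _s_at probe sets, 7 member probe sets and 6 members were left to test, and SLC38A2, SLC3A2, SLC7A5 and SLC7A6 dropped out. In that setting 190 genes, 2 member probe sets, 1 other transporter and 1 gene of arginine, cystine and glutamine use were called, and YARS1 turned to -0.14. With the covariate, 155 genes, 3 member probe sets and 1 other transporter were called. A threshold of 0.10 gave 593 genes, 4 members and 1 mTORC1 gene. Without large array 1 and small array 3 there were 776 genes, 7 members, 9 member probe sets, 3 amino acid response genes, 1 mTORC1 gene and 1 of arginine, cystine and glutamine use. With each array left out in turn, counts ran from 62 to 553 for genes, 1 to 7 for members, 1 to 7 for member probe sets, 0 to 4 for other transporters and 0 to 1 for both the amino acid response and the arginine, cystine and glutamine list. The replicate block called 753 genes, 7 members, 10 member probe sets, 2 amino acid response genes and 2 of arginine, cystine and glutamine use. Equally numbered sorts deviated from their group means with correlations of 0.11, 0.13, 0.23 and 0.01 over genes, and small arrays 1, 2 and 3 correlated best with the large array of their own number, small array 4 with large array 2 (0.05). The fibroblast marker COL3A1 was at 7.65, 8.55, 6.73 and 4.91 on small arrays 1 to 4. On large arrays 1 to 4 it was at 7.97, 8.39, 6.28 and 5.10. LUM and DCN were also lowest on array 4 of both fractions, and COL1A2 on array 3 of both. COL1A1 and THY1 were highest on small array 4 but on large array 2, and POSTN was lowest on small array 4 but on large array 1. These markers were looked at after their values were seen. Such values are a hint of pairing from the data, not from the labels. Whether equally numbered sorts share a culture was not tested and cannot be settled from the labels. The main comparison left the samples unpaired, and the errors given above are those of the unpaired fit.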

Other observations

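Several genes of the related lists that the naming rule did not take had large differences without passing limma's test, and those given here were chosen after their values were seen. SLC6A6, the taurine transporter, was at 8.06, 8.12, 8.96 and 8.87 on small arrays and at 8.85, 9.31, 9.79 and 9.83 on large arrays, a difference of -0.94 ± 0.25 (adjusted p = 0.0757). DEPDC5, a subunit of the GATOR1 complex that restrains mTORC1, was at 3.10, 2.87, 5.28 and 2.03 on small arrays and at 3.75, 4.84, 4.58 and 4.83 on large arrays, a dim and scattered probe set with a difference of -1.18 ± 0.62 (adjusted p = 0.368). In the other direction stood the glutamate transporter gene SLC1A2 (0.97 ± 0.56, adjusted p = 0.415), AKT1S1, an inhibitory partner of mTORC1 (0.85 ± 0.48, adjusted p = 0.410), and WDR24, a subunit of GATOR2 (0.74 ± 0.34, adjusted p = 0.302). STC2, a secreted glycoprotein gene, had the lowest difference of the amino acid response list (-0.65 ± 0.28, adjusted p = 0.262).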
